A study of Mus musculus with 78 samples.

Results

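The 10 genes described here encode translation factors of the mitochondrial ribosome, though not every such factor: Mtif2, Mtif3 and Mtfmt for initiation, Tufm, Tsfm and Gfm1 for elongation, Mtrf1 and Mtrf1l for termination, and Gfm2 and Mrrf for recycling. They were chosen by name, as 10 of the 55401 genes in each count table, with earlier results of these data known. The study itself names Mtrf1 and Tufm among the genes lowered on ZFP143 loss, so shares of all genes set beside the members are descriptions. All 10 passed the filter on low counts in each of the 3 tables. The cells were E14TG2a mouse embryonic stem cells (mESCs) in which both copies of Zfp143, a zinc-finger transcription factor gene, had been tagged in place at the C-terminal end with FKBP12 F36V, an HA tag and eGFP, so the controls carried the tag as well. The degrader dTAG-V1 at 500 nM, which recruits a ubiquitin ligase to the FKBP tag, was compared with its solvent DMSO. Transient transcriptome sequencing (TT-seq), which captures RNA labelled during a short pulse of 4-thiouridine, covered DMSO and 3 times of depletion (2, 6 and 24 h). RNA-seq of polyadenylated RNA covered DMSO and 24, 48 and 72 h of depletion, and in a separate experiment cells after 24 h of DMSO or dTAG-V1, without retinoic acid (RA) and with a further 24 h of RA. Before RA the cells grew in medium with LIF and inhibitors of MEK and GSK3. RA was given in N2B27 medium, listed without these, with DMSO or dTAG-V1 kept on. An RA effect therefore holds RA, the change of medium with the loss of LIF and both inhibitors, and a further day of culture together. Each group had 2 libraries from one tagged cell line, and no untagged line treated with dTAG-V1 was among these count tables. Within each time course, all times of depletion were set against the same 2 DMSO libraries, with no DMSO group for each time. Time in culture and time of depletion therefore cannot be told apart there.

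Mitochondria hold their own small genome and translate its messages on their own ribosomes, which serve the respiratory chain. The factors that run these ribosomes are encoded in the nucleus, made in the cytosol and imported. Mtfmt formylates the initiator methionyl-tRNA, Mtif2 places that tRNA on the ribosome and Mtif3 helps to select the start. Tufm is the mitochondrial EF-Tu, which delivers aminoacyl-tRNA, Tsfm recharges it with GTP, and Gfm1 moves the ribosome along the message. Mtrf1 and Mtrf1l are related release factors, and Mrrf and Gfm2 take the ribosome apart after release. ZFP143 binds promoters of nuclear genes through a long recognition sequence, of which ACTACANNTCCCA and CCCANNATGC are overlapping parts.

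4 of the 10 members had a ZFP143 peak at a promoter, that is a peak of the HA ChIP-seq that overlapped the window from 2000 bp before to 1000 bp after an annotated transcription start, with its centre within 2000 bp of it. For comparison, 14.8% of the genes of the same biotypes that were tested in TT-seq (2200 of 14901) were bound. Tufm had the strongest of the 4 peaks, at chr7:126486840-126487500 (mm10), with 74.3-fold enrichment over input, rank 293 of 3189 peaks. Its summit lay 202 bp before the start of Tufm, which spans chr7:126487361-126490731 on the plus strand. Mtif2 (chr11:29526408-29545279, plus strand) had a peak at chr11:29526154-29526656 with 66.6-fold enrichment, rank 390, and its summit 23 bp before the start. At Mtrf1 (chr14:79397772-79423587, plus strand) the peak lay at chr14:79397518-79398037 with 44.8-fold enrichment, rank 780, and its summit 14 bp before the start. The Mtfmt peak was the weakest and differed in position. It lay at chr9:65435771-65436005, with 12.5-fold enrichment against a median of 20.8 over all peaks, rank 2052, and its summit lay 82 bp inside the gene (chr9:65435782-65453054, plus strand). With peaks of at least 20-fold enrichment alone, 3 of the 10 members stayed bound and Mtfmt was lost. The peak list has no replicate, so these enrichments carry no error.

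The promoter sequences below show the motif matches of the 4 bound members (at the summits of Tufm, Mtrf1 and Mtif2, and upstream of that of Mtfmt), Mtrf1l as the unbound relative of Mtrf1, and Tsfm and Gfm1 as unbound members with a CTCF peak over the annotated start. They are reference sequences from RefSeq (GRCm38.p6), 5′ to 3′ on the strand of the gene, with the motif match in capitals, and 9 of the 10 members had an entry, all but Mtif3. Capitals mark CCCANNATGC (read on the opposite strand) in Tufm and Mtfmt, ACTACANNTCCCA in Mtrf1, the shorter CCCANNAT in Mtif2, and the core CCANNAGNNGGC of the CTCF motif in Tsfm and Gfm1.
Tufm, chr7:126487135-126487214, plus strand: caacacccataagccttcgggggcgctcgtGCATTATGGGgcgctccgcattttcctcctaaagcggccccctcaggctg
Mtrf1, chr14:79397712-79397791, plus strand: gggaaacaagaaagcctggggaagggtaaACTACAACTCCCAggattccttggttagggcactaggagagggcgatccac
Mtif2, chr11:29526337-29526416, plus strand: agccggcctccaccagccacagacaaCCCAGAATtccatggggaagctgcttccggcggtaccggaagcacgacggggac
Mtfmt, chr9:65435722-65435801, plus strand: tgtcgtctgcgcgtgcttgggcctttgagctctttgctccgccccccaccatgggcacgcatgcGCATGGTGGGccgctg
Mtrf1l, chr10:5823924-5824003, minus strand: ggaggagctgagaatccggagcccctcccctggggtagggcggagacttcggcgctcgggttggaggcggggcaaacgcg
Tsfm, chr10:127030874-127030933, minus strand: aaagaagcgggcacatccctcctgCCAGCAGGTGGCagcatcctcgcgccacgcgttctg
Gfm1, chr3:67430007-67430066, plus strand: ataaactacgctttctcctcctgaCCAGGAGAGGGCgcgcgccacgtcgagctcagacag

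Both strands of each window of 300 bases around a RefSeq start were searched. CCCANNATGC was held by 1.88% of all 32851 windows and by 11.1% of the 2326 windows of bound genes, and ACTACANNTCCCA by 1.47% and 18.8%. Around the summits of all 3189 ZFP143 peaks, in windows of the same length, the shares were 23.3% and 26.1%. In Tufm and Mtrf1 the middle of the match lay 11 bp from the summit of the peak, and in Mtfmt it lay 73 bp from it. The Mtif2 window held neither motif. It held CCCANNAT 18 bp from the summit, a short string searched after the sequences had been seen and present in 13.9% of all windows. No window of the 5 unbound members with an entry held ACTACANNTCCCA, CCCANNATGC or CCCANNAT, which says only that these letters were not found there.

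**Figure D1:**
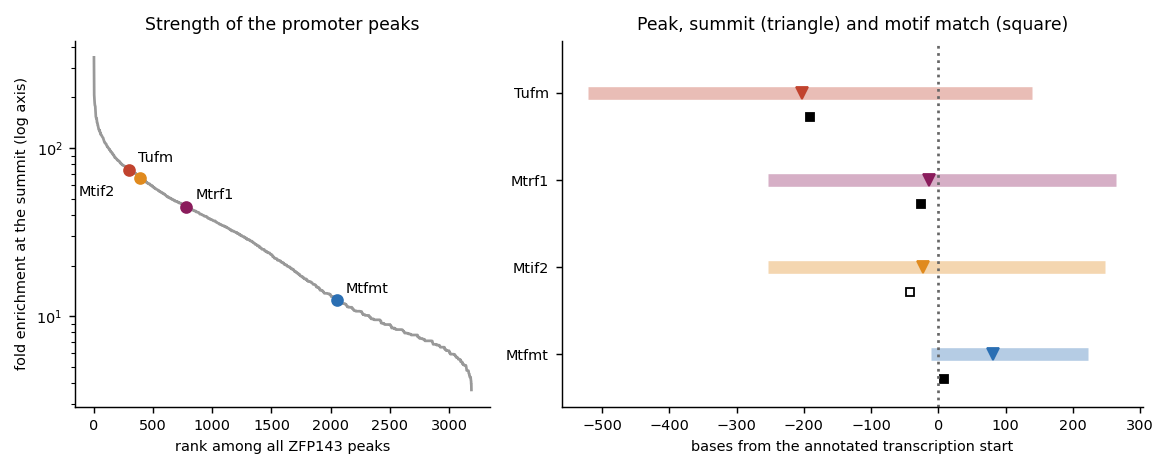
Left, fold enrichment at the summit (log axis) against rank for all 3189 ZFP143 peaks, with the 4 promoter peaks of the mitochondrial translation factors as coloured points. Right, extent of each peak (bar), its summit (triangle) and the middle of the motif match (filled square, CCCANNATGC or ACTACANNTCCCA; open square, the shorter CCCANNAT) in bases from the annotated transcription start. The Tufm, Mtif2 and Mtrf1 peaks ranked 293, 390 and 780 with summits before the start, and the Mtfmt peak ranked 2052 with its summit 82 bp after it.

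The other 6 members had no ZFP143 peak near a promoter. The nearest peak centre lay 123364 bp from a start of Gfm1 (chr3:67430096-67476529, plus strand) and 124430 bp from one of Tsfm (chr10:127011572-127030840, minus strand), and further off for Mtif3 (chr5:146951573-146963800, minus strand), Gfm2 (chr13:97137937-97181195, plus strand), Mrrf (chr2:36136389-36190647, plus strand) and Mtrf1l (chr10:5811887-5823910, minus strand), the last at 1564373 bp. CTCF, which the study set beside ZFP143, had a peak centre 25 bp from a start of Tsfm, 90 bp from one of Gfm1 and 1117 bp from one of Mtrf1l, and 1 CTCF peak covered each of the 2 core matches printed above. That core was held by 2.43% of all 32851 windows and 2.58% of those of bound genes. Tsfm and Gfm1 were printed because of their CTCF peaks, and the share of all genes with such a peak was not counted. No CTCF peak overlapped the ZFP143 peaks of Tufm, Mtrf1, Mtif2 and Mtfmt. 2 members shared a promoter region with another gene on the opposite strand, Gfm2 with Nsa2 and Mrrf with Rbm18 187 bp away, and none of these 4 genes was bound. Tsfm, Mtif3, Gfm1, Gfm2 and Mrrf overlap antisense genes, so their values rest on the strand of the counted reads.

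In DMSO the members differed widely in level. On the scale of CPM, reads of a gene scaled to its library total with TMM factors, per kb of gene span, which fits the unspliced RNA of TT-seq, Tufm was highest with 5.56 ± 0.47 (SD, n = 2 libraries, as for all values below) and Mtrf1 lowest with 0.564 ± 0.025. The neighbours Mtif2, Gfm1 and Mtif3 overlapped in that order, as did Mrrf and Mtrf1 at its end. In RNA-seq, per kb of exon, Tufm was again highest with 30.6 ± 2.05, followed by Gfm1, Tsfm and Mtif2 with 24.4 ± 1.31, 20.6 ± 2.18 and 16.2 ± 0.80, and the remaining 6 lay between 6.40 (Gfm2) and 2.31 (Mtrf1l). No 2 neighbours overlapped there, whereas in the DMSO libraries of the RA experiment Mrrf, Mtfmt, Mtrf1 and Mtif3 overlapped in turn. Mtrf1l held the second place in TT-seq, with 3.72 CPM per kb of span, and the last in both RNA-seq experiments, while its relative Mtrf1 was last in TT-seq and seventh in the RNA-seq time course.

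Total counts per library were 9721568 to 16532077 in TT-seq, 10261851 to 15316700 in the RNA-seq time course and 13890761 to 27089033 in the RA experiment. The common biological coefficient of variation was 17.2% in TT-seq against 3.65% and 5.92% in RNA-seq, so TT-seq resolves smaller differences less well. The targeted transcript does not report on the loss of the protein, which was not measured here: Zfp143 itself rose in each depletion comparison, by a log2 change of 1.17 ± 0.11 (SE) after 2 h in TT-seq and 1.30 ± 0.06 after 72 h in RNA-seq. All 7 of the 7 pluripotency markers were detected at 1 CPM or more in every group, the RA groups included. Marker levels moved with depletion, however: in the RNA-seq time course their summed level went from 5380 to 5496 CPM in DMSO to 3883 to 3940 CPM at 72 h, that of 6 neural and RA response markers from 3.40 to 3.49 CPM to 15.9 to 16.5 CPM, and that of 5 primitive endoderm markers from 5.88 to 6.20 CPM to 13.1 to 13.6 CPM, and their part in the changes of the members was not tested. Of these 6 and 5 markers, 1 and 1 reached 1 CPM in DMSO and 2 and 3 at 72 h, and 1 gene held most of each sum. The sum of 4 trophoblast markers was 20.7 to 20.9 CPM in DMSO, 12.5 to 14.1 at 24 h and 21.4 to 21.9 at 72 h. Since these are bulk samples, fewer cells that express a gene and less RNA per cell cannot be told apart.

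In TT-seq, 3 of the 4 bound members, Mtrf1, Tufm and Mtif2, were lower in every dTAG-V1 library than in both DMSO libraries from 2 h onwards, and the fourth, Mtfmt, was not. None of the 6 unbound members lay below or above DMSO in this way, against 12% of all tested genes below and 8.1% above. Mtrf1 measured 15.0 and 14.1 CPM in DMSO, then 6.14 and 4.58 by 2 h, 3.98 and 4.71 by 6 h, and 3.44 and 2.74 by 24 h. It was reduced to 36.7%, 29.9% and 21.2% of DMSO, with log2 changes of -1.44 ± 0.24, -1.74 ± 0.25 and -2.24 ± 0.26 (SE). Genes were called in TT-seq at an adjusted p under 0.05 in the quasi-likelihood test of edgeR with an absolute log2 change above 0.5, and Mtrf1 was called at all 3 times (adjusted p = 0.0167, 0.00723 and 0.00231). The reads behind these values were few, 145 and 185 in DMSO and 35 and 36 after 24 h. The call at 2 h was lost without either DMSO library or either 2 h library (adjusted p = 0.0735, 0.0877, 0.0806 and 0.183), and that at 6 h without either 6 h library (0.113 and 0.0679). In these fits a lone library is assumed to vary like the other groups, and the log2 changes stayed between -1.66 and -1.23 at 2 h and between -1.87 and -1.62 at 6 h. At 24 h it held whichever library was left out, with log2 changes of -2.41 to -2.06.

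Tufm, the member with the strongest peak, measured 19.9 and 17.6 CPM in DMSO, then 11.6 and 11.6 by 2 h, 9.28 and 11.1 by 6 h, and 11.7 and 12.3 by 24 h. These levels were 62.0%, 54.4% and 64.2% of DMSO, and the groups did not overlap at any time. The log2 changes were -0.69 ± 0.18, -0.88 ± 0.19 and -0.64 ± 0.19, and Tufm was called at 6 h (adjusted p = 0.042) but not at 2 h (0.13) or 24 h (0.0857). The call at 6 h was lost whichever of the 8 libraries was left out (adjusted p from 0.0551 to 0.338). Mtif2 measured 45.1 and 56.9 CPM in DMSO, then 34.2 and 32.6 by 2 h, 33.5 and 32.6 by 6 h, and 36.6 and 31.7 by 24 h. It stood at 65.4%, 64.8% and 66.8% of DMSO without being called (log2 changes -0.61 ± 0.15, -0.63 ± 0.15 and -0.58 ± 0.15, adjusted p = 0.1, 0.0728 and 0.0628). The replicate numbers of TT-seq deviated together, and in a fit with the replicate number as a block Mtif2 was called at 2, 6 and 24 h (adjusted p = 0.0411, 0.0279 and 0.0248) and Tufm at 6 and 24 h (0.0148 and 0.0344), but not at 2 h (0.0527). With no filter on low counts Mtif2 was called at 6 and 24 h (adjusted p = 0.029 and 0.036), which made 3 and 2 members, against 2.69% and 3.24% of all genes in that fit.

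Mtfmt, whose peak was weak and lay inside the gene, measured 18.7 and 19.0 CPM in DMSO, then 19.6 and 19.6 by 2 h, 19.0 and 21.6 by 6 h, and 19.97 and 17.8 by 24 h. Its 3 absolute log2 changes were below 0.2, with an SE of 0.16, and no difference was detectable at this depth. Mtrf1l, the unbound relative of Mtrf1, measured 44.7 and 44.8 CPM in DMSO, then 43.2 and 44.0 by 2 h, 43.9 and 48.8 by 6 h, and 43.5 and 40.1 by 24 h. So at 24 h Mtrf1 stood at 21.2% and Mtrf1l at 93.4% of DMSO. Over the 6 unbound members the levels were 95.4% to 112% of DMSO after 2 h, 98.1% to 107% after 6 h and 93.4% to 121% after 24 h, and the highest, Mrrf at 24 h, had an adjusted p of 0.321.

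Of all 10 members, 1, 2 and 1 were thus called lower after 2, 6 and 24 h, against 2.43%, 2.83% and 4.09% of the 17870 tested genes. With the replicate block 2, 3 and 3 members were called lower, against 3.7%, 5.35% and 6.79% of these genes. No member was called higher at these times, also not at an unadjusted p under 0.05 or by DESeq2, against 0.168%, 0.397% and 2.02% of all genes. The median log2 change of the 4 bound members was -0.65, -0.75 and -0.61, beside -0.28, -0.30 and -0.30 over all 2200 bound genes, of which 17.3%, 18.5% and 22.5% were called lower. Among eligible genes without a peak, 0.165%, 0.354% and 1.09% were called lower. Between 2 h and 24 h no member was called by edgeR, where 0.056% of all genes were called lower and 0.0336% higher. DESeq2 and the replicate block called no member either, where of the 17870 genes 195 and 390 were called lower and 229 and 572 higher. At an unadjusted p under 0.05 1 member was lower and 1 higher: Mtrf1 differed by -0.79 ± 0.26 on the log2 scale (adjusted p = 0.207) and Mrrf by 0.34 ± 0.15 (adjusted p = 0.313).

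**Figure D2:**
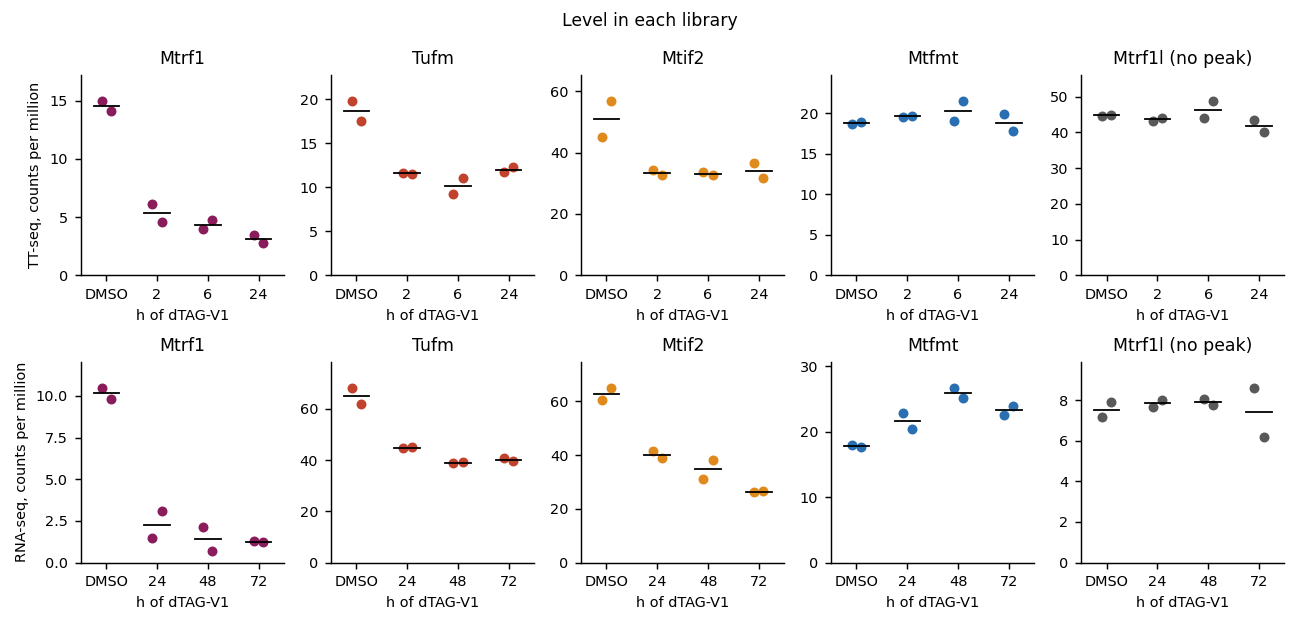
CPM in each library (points, 2 a group; line, mean) for the 4 bound members and the unbound Mtrf1l, in TT-seq (top) and RNA-seq (bottom), by hours of dTAG-V1. Mtrf1, Tufm and Mtif2 lie below both DMSO libraries in every dTAG-V1 library, Mtfmt does not, and Mtrf1l overlaps DMSO at 72 h in RNA-seq.

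In the RNA-seq time course the same 3 bound members and the unbound Gfm2 lay below both DMSO libraries in every dTAG-V1 library, against 24.1% of all tested genes. Mtrf1 measured 10.5 and 9.83 CPM in DMSO, then 1.45 and 3.10 by 24 h, 2.16 and 0.712 by 48 h, and 1.29 and 1.23 by 72 h, from 114 and 138 reads in DMSO and 8 to 34 in the dTAG-V1 libraries. It was left at 22.1%, 14.6% and 12.5% of DMSO (log2 changes -2.18 ± 0.26, -2.77 ± 0.28 and -3.00 ± 0.29). Genes in RNA-seq were called with glmTreat of edgeR, which tests for a change beyond 1.5-fold, at an adjusted p under 0.01. By that rule Mtrf1 was called at all 3 times (adjusted p = 6.08e-06, 6.86e-08 and 1.18e-08), and leaving out any 1 library changed none of these calls. The sizes at 24 and 48 h depended on single libraries: the log2 change at 24 h was -2.79 without 24 h replicate 2 and -1.70 without 24 h replicate 1, and that at 48 h was -3.81 without 48 h replicate 1 and -2.22 without 48 h replicate 2. In DESeq2 with the same fold limit the call at 24 h was lost (adjusted p = 0.135).

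Mtif2 had a lower mean at each later time. It measured 60.6 and 65.0 CPM in DMSO, then 41.5 and 38.9 by 24 h, 31.2 and 38.3 by 48 h, and 26.4 and 26.5 by 72 h, which were 63.9%, 55.0% and 42.0% of DMSO. The log2 changes were -0.65 ± 0.08, -0.86 ± 0.08 and -1.25 ± 0.08, with calls at 48 h (adjusted p = 0.00136) and 72 h (1.21e-08) and none at 24 h (0.589). The call at 48 h was lost without DMSO replicate 2 (adjusted p = 0.0162), without 48 h replicate 1 (0.123), with library totals as the scale (0.218) and in DESeq2 (0.0975). Tufm measured 68.2 and 62.0 CPM in DMSO, then 44.5 and 45.0 by 24 h, 39.0 and 39.1 by 48 h, and 40.8 and 39.6 by 72 h. Its groups were far apart relative to their spread, at 69.0%, 60.2% and 61.9% of DMSO, but the change was close to the 1.5-fold limit. Under glmTreat it was not called (log2 changes -0.54, -0.73 and -0.69, each ± 0.07, adjusted p = 1, 0.029 and 0.0651), while by the rule used for TT-seq, which tests for any change, it was called at all 3 times (adjusted p = 3.21e-07, 4.96e-10 and 8.11e-10). Without DMSO replicate 2, glmTreat called Tufm at 48 h as well (adjusted p = 0.00773).

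Mtfmt, in contrast, lay above DMSO in RNA-seq. It measured 18.0 and 17.6 CPM in DMSO, then 22.8 and 20.4 by 24 h, 26.7 and 25.1 by 48 h, and 22.6 and 23.9 by 72 h, so that both libraries of each time lay above DMSO, as they did for 24.3% of all tested genes and no other member. The log2 changes were 0.29 ± 0.10, 0.54 ± 0.10 and 0.39 ± 0.10, within the 1.5-fold limit and not called (adjusted p = 1, 0.995 and 1), and by the rule used for TT-seq it was called higher at 48 h (adjusted p = 1.93e-05). The 6 unbound members stood at 90.3% to 113% of DMSO after 24 h, 94.1% to 111% after 48 h and 81.3% to 134% after 72 h, none of them called. At the ends of the last range were Gfm2 (log2 change -0.30 ± 0.06) and Mtif3 (0.42 ± 0.11). Mtrf1l measured 7.16 and 7.91 CPM in DMSO and 8.60 and 6.21 after 72 h, so these groups overlapped.

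The members called lower were 1 after 24 h (Mtrf1) and 2 after 48 and 72 h (Mtrf1 and Mtif2), against 3.41%, 7.71% and 12% of the 13925 genes tested. None was called higher, against 2.32%, 10.5% and 13.7% of all genes, also not at an unadjusted p under 0.05 of glmTreat or in DESeq2, both of which test against the 1.5-fold limit. In the quasi-likelihood test for any change, adjusted p was under 0.05 for higher values of Mtfmt at 24, 48 and 72 h (0.0212, 1.93e-05 and 0.000881), Tsfm at 24 h (0.0409) and Mtif3 at 72 h (0.00121), and for lower values of Gfm2 at 72 h (0.000142) and of Mtrf1, Tufm and Mtif2 at all 3 times. With the size limit of 0.5, which is the rule used for TT-seq, 3 members were called lower at 24, 48 and 72 h, against 8.52%, 16.9% and 22% of all genes, and 1 higher at 48 h (Mtfmt), against 21.1%. Higher by that rule were 1591, 2944 and 3398 of the 13925 genes at the 3 times. The share of all genes without the size limit was not counted and is at least as large. The bound members had a median log2 change of -0.59, -0.80 and -0.97, beside -0.26, -0.32 and -0.31 over all bound genes tested. In the difference between 72 h and 24 h no member was called by glmTreat, by DESeq2 with the same limit or at an unadjusted p under 0.05 of glmTreat, where 6.6% of all genes were called lower and 7.53% higher. The difference was -0.60 ± 0.09 for Mtif2, -0.34 ± 0.07 for Tsfm and 0.26 ± 0.11 for Mtif3, with adjusted p of 1.38e-06, 0.000189 and 0.0392 in the quasi-likelihood test for any change, in which Gfm2 was lower as well (0.0428). With the size limit of 0.5 that was 1 member lower (Mtif2), against 16.7% of all genes, while 2606 of the 13925 genes were called higher. Without the limit these numbers are at least as large. For Mtrf1 it was -0.82 ± 0.39, and from -1.30 (without 24 h replicate 1) to -0.21 (without 24 h replicate 2).

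**Figure D3:**
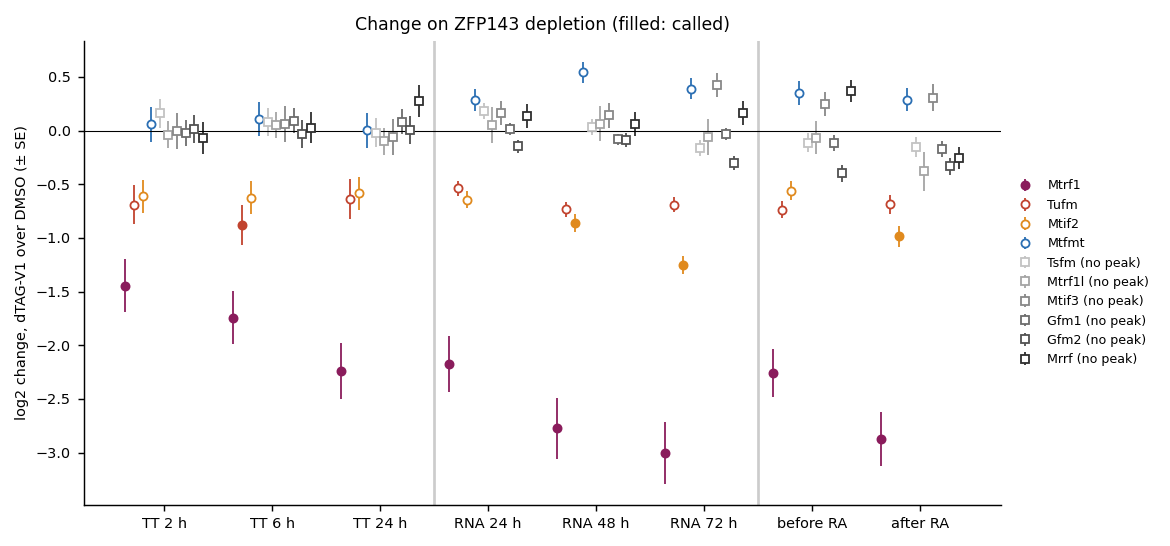
Log2 change of dTAG-V1 over DMSO (± SE) for the 10 members in TT-seq, the RNA-seq time course and the RA experiment before and after RA. Circles are members with a ZFP143 peak, grey squares members without one, and filled symbols were called. Mtrf1 lies lowest in all 8 comparisons (-1.44 to -3.00), Tufm and Mtif2 follow between -0.54 and -1.25, and the other 7 members lie between -0.40 and 0.54.

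The RA experiment repeated the depletion in a separate set of cells and continued it into differentiation. Before RA, after 24 h of dTAG-V1, Mtrf1 measured 2.29 and 1.79 CPM against 10.9 and 8.43 in DMSO (log2 change -2.26 ± 0.23, adjusted p = 1.66e-06 in glmTreat). Tufm measured 63.3 and 57.5 against 97.1 and 104 CPM, and Mtif2 41.9 and 41.9 against 63.0 and 60.6 CPM. Neither was called under glmTreat (log2 changes -0.74 ± 0.08 and -0.56 ± 0.09, adjusted p = 0.0939 and 1), and both were called by the rule used for TT-seq (2.61e-07 and 3.92e-05). After RA, Mtrf1 measured 0.777 and 1.58 CPM in depleted cells against 8.70 and 8.73 in control cells, or 13.7% (log2 change -2.87 ± 0.25, adjusted p = 7.37e-08). Mtif2 measured 21.7 and 26.0 against 45.0 and 49.7 CPM and was called there (log2 change -0.99 ± 0.10, adjusted p = 0.000352), although not without dTAG RA replicate 1 (0.0284), with library totals as the scale (0.0411) or in DESeq2 (0.0119). Tufm, at 21.8 and 21.7 against 33.6 and 36.8 CPM, stood at 62.0% of the control and was not called by glmTreat (-0.69 ± 0.09, adjusted p = 0.175) but was by the rule used for TT-seq (1.69e-06). Mtfmt was again above DMSO, by 0.35 ± 0.11 before RA and 0.29 ± 0.11 after it, and not called.

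These were 1 of the 10 members called lower before RA and 2 after it, against 3.66% and 7.36% of the 15915 tested genes, and none called higher, against 2.74% and 9.1%. None was higher at an unadjusted p under 0.05 of glmTreat or in DESeq2 either, while the quasi-likelihood test for any change gave higher values of Mrrf and Mtfmt before RA (adjusted p = 0.00574 and 0.0148) and of Mtfmt and Mtif3 after it (0.0277 and 0.0429). It gave lower values of Gfm2 before and after RA (0.000256 and 0.00085) and of Mrrf after it (0.0331), besides Mtrf1, Tufm and Mtif2 in both. By the rule used for TT-seq these 3 were called lower before and after RA, against 8.43% and 18.6% of all genes. Higher by that rule were 2302 and 3333 of the 15915 genes, and without its size limit these numbers are at least as large. Among the unbound members Gfm2 lay below DMSO in both comparisons, by log2 changes of -0.40 ± 0.08 and -0.33 ± 0.08, and Mtif3 above it, by 0.25 ± 0.11 and 0.31 ± 0.13, with no call.

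After RA, the 3 elongation factors Tufm, Tsfm and Gfm1 were called lower in both conditions. Of the 3 initiation factors, Mtif3 was called in both, Mtif2 in depleted cells alone and Mtfmt in neither. In control cells 4 of the 10 members were called lower after RA, against 18.1% of all genes, and none higher, against 25.8%. Tufm had the largest log2 change, from 97.1 and 104 CPM to 33.6 and 36.8 CPM (-1.52 ± 0.08, adjusted p = 2.43e-10). The others called were unbound: Mtif3 fell from 19.3 and 19.0 to 9.14 and 11.1 CPM, Tsfm from 65.0 and 77.8 to 41.3 and 38.8 CPM, and Gfm1 from 152 and 161 to 96.4 and 83.9 CPM, which left 52.1%, 56.2% and 57.7% of the level without RA (adjusted p = 0.00238, 0.00366 and 0.00329). In depleted cells 5 members were called lower, against 18.5% of all genes, and none higher, against 25%. They were Tufm (log2 change -1.47 ± 0.09), Mtif3 (-0.88 ± 0.11), Tsfm (-0.87 ± 0.09), Gfm1 (-0.85 ± 0.08) and Mtif2 (-0.81 ± 0.10). Mtrf1l had log2 changes of -0.52 ± 0.17 in control and -0.84 ± 0.17 in depleted cells and was not called by glmTreat. By the rule used for TT-seq it was called lower in both conditions (adjusted p = 0.0076 and 0.000116) and Mtrf1 in depleted cells (-0.76 ± 0.31, adjusted p = 0.0292), which made 5 and 7 members, against 28.3% and 29.7% of all genes. The Mtrf1 value came from 16 and 34 reads after RA and was -1.28 without dTAG RA replicate 2 and -0.26 without dTAG RA replicate 1. Under the size limit of that rule, Gfm2 in both conditions, Mtif2 in control cells and Mrrf in depleted cells also had lower values with an adjusted p under 0.05. The share of all genes lower without that limit was not counted and is at least the 28.3% and 29.7% found with it. In neither condition was a member higher at an unadjusted p under 0.05 of glmTreat or in DESeq2.

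The Tufm call under RA held whichever library was left out, with every scale and in DESeq2, while the others were less firm. With library totals as the scale, under which the median of all genes moved to 0.35 in control and 0.39 in depleted cells, and also in DESeq2, Tufm alone was called in either condition. In control and depleted cells, 1710 and 1518 of all 15915 genes were called lower with library totals, and 2264 and 2111 in DESeq2. The log2 changes of Tsfm, Mtif3 and Gfm1 in control cells were -0.51, -0.62 and -0.47 with library totals, and -0.85, -0.95 and -0.81 in DESeq2. In the main fit they were -0.83, -0.94 and -0.79. Leaving out 1 library took the count down to 2 of the 10 in control cells (without DMSO replicate 2 or either DMSO RA library) and in depleted cells to 1 (without dTAG RA replicate 1), 2 (without dTAG RA replicate 2) or 3 (without either DMSO RA or either dTAG library). The cells had also changed in kind: the summed level of the 7 pluripotency markers went from 6348 to 6523 CPM in DMSO down to 675 to 1003 CPM after RA, and that of 6 neural and RA response markers from 15.5 to 16.4 CPM up to 577 to 672 CPM. In depleted cells after RA these sums were 1291 to 1514 CPM and 274 to 296 CPM, and the part of such differences in the values of the members was not tested.

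**Figure D4:**
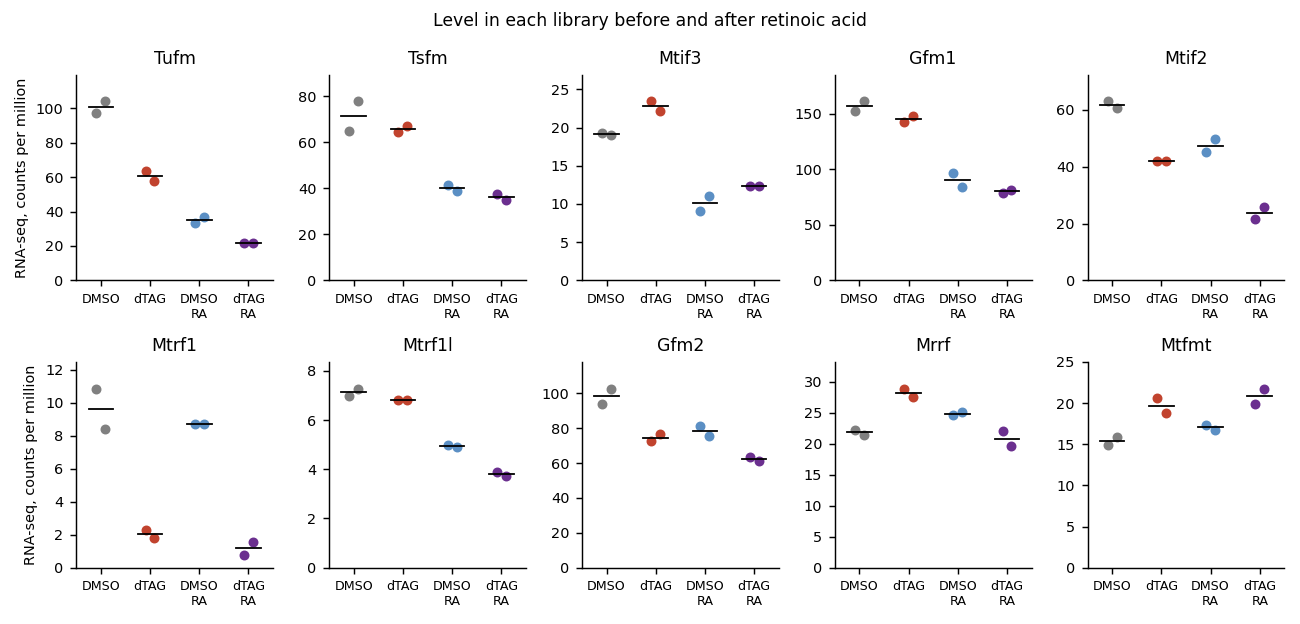
CPM in each library (points, 2 a group; line, mean) of the 10 members in the RA experiment, in DMSO and dTAG-V1 without RA and after 24 h of RA. Tufm, Tsfm, Mtif3 and Gfm1 are lower after RA in both conditions, Mtrf1 is low in both dTAG-V1 groups, and Mrrf is the member that is above DMSO in dTAG-V1 before RA and below it after RA.

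Whether RA acted differently in depleted cells was tested as the RA by depletion interaction, the RA effect in dTAG-V1 minus that in DMSO, with the quasi-likelihood test. For Tufm it was below 0.2 in size with an SE of 0.12, so the effects of RA (to 34.9% of the level without RA in control cells and 36.1% in depleted cells) did not differ detectably. 1 member, Mrrf, was called lower, against 18% of all genes, and none higher, against 13.7% (none at an unadjusted p under 0.05 or in DESeq2). Mrrf measured 22.2 and 21.4 CPM in DMSO, 28.9 and 27.5 in dTAG-V1, 24.6 and 25.1 in DMSO with RA, and 22.0 and 19.6 in dTAG-V1 with RA. It was above DMSO in depleted cells before RA and below it after RA, with an interaction of -0.63 ± 0.14 (adjusted p = 0.00133). Without dTAG RA replicate 2 this was -0.49 (adjusted p = 0.0209), under the size limit of 0.5. The interaction of Mtif2, -0.42 ± 0.13 (adjusted p = 0.0125), also lay under that limit, and that of Mtrf1 (-0.61 ± 0.36, adjusted p = 0.184) missed the threshold. Both depended on the dTAG RA libraries: without replicate 2 they were called instead, at -0.50 (adjusted p = 0.00779) and -1.16 (0.0388), so 2 members were called in place of 1, and without replicate 1 they were -0.24 (0.178) and -0.14 (0.799). The Mtif2 value also missed 0.05 without DMSO RA replicate 2 (-0.34, adjusted p = 0.0643).

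Other parts of the mitochondrial translation apparatus were set beside the factors as counts. Of 78 mitochondrial ribosomal proteins tested in TT-seq, 7, 8 and 7 were called lower after 2, 6 and 24 h (2.43%, 2.83% and 4.09% of all genes), with a median log2 change of -0.25, -0.32 and -0.17 beside 0.01 over all genes at each time. Of 31 other genes of mitochondrial translation (including assembly factors, tRNA modification and message handling, but also Guf1, 2810006K23Rik, Pdf, Metap1d and Oxa1l), 2, 2 and 1 were called lower, among them Gatb, a subunit of the enzyme that makes glutaminyl-tRNA in mitochondria, at all 3 times (log2 changes -1.27 ± 0.15, -1.36 ± 0.15 and -1.04 ± 0.15). Of 18 cytosolic translation factors, 2 (Eef1a1 and Gspt1) were called lower at 24 h, and the medians at the 3 times were -0.09, -0.08 and -0.10. By 72 h in RNA-seq the counts called lower were 9 of 76, 3 of 30 and 6 of 18 in the same order of lists, beside 12% of all genes, and 1 of the 30 (Trmu) was called higher, beside 13.7%. After RA in control cells they were 28 of 77, 9 of 30 and 7 of 18, beside 18.1% of all genes, with 2 of the 77 and 1 of the 30 called higher, beside 25.8%.

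Over the 16 libraries of TT-seq and the RNA-seq time course, each centred on its DMSO libraries, the genes whose values followed Mtrf1 most closely among 12884 compared were Zmat5, Prr12 and Uqcr10 (Pearson r = 0.96, 0.96 and 0.95), and those nearest to Tufm were Thoc5, Hgh1 and Mrpl54 (r = 0.95, 0.95 and 0.95). Mtrf1 correlated with Mtif2 at 0.84 and with Tufm at 0.80, with Mtrf1l at 0.04 and with Mtfmt at -0.69. These are descriptions over libraries that share their controls and their times of depletion.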

How the data were processed

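Raw counts, whole numbers of reads a gene, fill the 3 deposited gene tables. Per the methods of the study, reads were mapped with STAR to mm10 with GENCODE vM25. TT-seq reads were then filtered for duplicates, split by strand and counted with htseq-count, while RNA-seq reads were counted by STAR, with the strand setting not given in the sources used here. The ZFP143 peak list deposited by the authors was called with MACS2. For each peak the authors' list gives, as MACS2 wrote it, the fold over the input library at the summit and the −log10 of the q value. The CTCF list holds positions alone, pooled over DMSO and dTAG. The 4C file deposited by the authors (RPM) and other data types were not used here.

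The 10 members and the other lists were chosen with earlier results of these data known. The named genes are the members, Zfp143, genes that start within 1000 bp of a member, and the 3 genes most correlated with Mtrf1 and with Tufm; Gatb, Trmu, Eef1a1 and Gspt1 were named after their values were seen. Of 55401 identifiers, 55141 matched GENCODE vM21 (GRCm38) without version. Genes were tested where at least 4 of 8 libraries had more than 10 counts, with edgeR 4.0.16 (R 4.3.3), TMM scaling and 1 fit of 4 groups of 2 libraries a table. Adjusted p-values are Benjamini-Hochberg over all genes of a table, and p-values measure the spread between 2 libraries a group. Tested on simulated TT-seq counts at 2 h (17870 genes), the procedure recovered 77% of genes changed by log2 1 and 99% of those changed by log2 2. The changed genes were drawn among those with higher mean counts than Mtrf1 has in TT-seq. The simulated libraries also varied independently of each other, so these shares do not cover Mtrf1 or a deviation shared by replicate number. Same-numbered libraries of different groups deviated together in TT-seq in all 6 group pairs (r from 0.19 to 0.63, from the data, not the labels), but not in the RNA-seq tables (-0.10 to 0.13). Alternatives were DESeq2 1.42.0, other scaling, no filter, a replicate block, the other call rule and leaving out each library.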

Additional observations from a re-analysis of the deposited data

Results flagged for a closer look

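The effect of RA differed between control and depleted cells, by the interaction term of edgeR with the size limit, for 1 of the 10 members, where 18% of all genes were called lower and 13.7% higher. For Mrrf the difference was -0.63 ± 0.14 (SE, log2; adjusted p = 0.00133), from an RA effect below 0.2 in size in control cells and of -0.44 ± 0.10 in depleted cells. Without dTAG RA replicate 2 it was -0.49 (adjusted p = 0.0209), under the size limit of 0.5. For Mtif2 the term had an adjusted p of 0.0125 but at -0.42 ± 0.13 lay under that limit and was not called, from -0.39 ± 0.09 in control cells and -0.81 ± 0.10 in depleted cells. The Mtif2 value was -0.50 (adjusted p = 0.00779) without dTAG RA replicate 2, -0.24 (0.178) without dTAG RA replicate 1 and -0.34 (0.0643) without DMSO RA replicate 2.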

How the results depend on the processing

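Counts of members called lower moved as follows. In TT-seq, the replicate block gave 2, 3 and 3 at 2, 6 and 24 h (3.7%, 5.35% and 6.79% of all genes), and dropping the filter on low counts gave 3 at 6 h and 2 at 24 h (2.69% and 3.24%). Leaving out 1 library each gave 0 to 1 at 2 h and 0 to 1 at 6 h. In the RNA-seq time course, library totals as the scale gave 1 at 48 h (698 of 13925 genes), DESeq2 gave 0 at 24 h and 1 at 48 h (335 and 729 of 13925 genes), and the TT-seq call rule gave 3 at 24 h (8.52% of all genes), 1 for 72 h minus 24 h (16.7%) and 1 member higher at 48 h (21.1%). Leaving out 1 library gave 1 to 2 at 48 h. In the RA experiment, the TT-seq call rule gave 3 before and 3 after RA (8.43% and 18.6% of all genes), library totals and DESeq2 each gave 1 after RA, and 1 left-out library gave 1 to 2. The RA effect in control cells gave 1 with library totals, 1 in DESeq2 and 2 to 4 with 1 library left out, and in depleted cells 3 with size factors of DESeq2, 1 with library totals, 1 in DESeq2 and 1 to 5 with 1 library left out. The interaction gave 1 to 2. Of all 15915 genes, 762 were called lower by depletion after RA with library totals and 765 in DESeq2. For the RA effect in control cells these numbers were 1710 and 2264, and in depleted cells 1518 and 2111. Size factors of DESeq2 gave 2762 genes lower in depleted cells. The cause of the moves in member counts was not tested beyond the rules themselves, of which glmTreat asks for more than a 1.5-fold change.

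Of 65 member changes of at least 0.2 on the log2 scale, 1 changed sign: Gfm2 under RA in depleted cells, at 0.13 with library totals. Another 65 changes were below 0.2, of which 41 changed sign under some setting and none was called, with 0.506 the largest size under any setting. Library totals moved the median of all genes to 0.15, 0.21 and 0.23 in the RNA-seq time course and to 0.20 to 0.39 in the RA experiment, where the share of calls that were lower went from 59.5% to 43.8%, 42.4% to 25.4% and 46.7% to 28.8% at 24, 48 and 72 h, from 57.2% to 43.5% before RA, 44.7% to 26.7% after it, and 41.2% to 24.9% and 42.5% to 21.8% for RA in control and depleted cells. Over all genes, TT-seq calls lower at 2, 6 and 24 h numbered 435, 506 and 730, against 662, 956 and 1214 with the block and 774, 980 and 1178 with no filter, and RNA-seq calls lower at 24, 48 and 72 h 475, 1073 and 1677, against 1187, 2352 and 3066 by the TT-seq rule. TT-seq calls higher numbered 30, 71 and 361, against 87, 359 and 1009 with the block and 162, 338 and 1025 with no filter. The replicate block changed no other call of a member, and in the RNA-seq tables it changed none. With 4 of 10 members bound, a peak centre within 500 bp or at least 50% of the peak in the window also gave 4. Fits that leave out 1 of 2 libraries assume that the lone library varies like the other groups. In TT-seq, Mtrf1 rests on 35 to 185 reads a library and Tufm on 119 to 231.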
